A study of Mus musculus with 4 samples.

Results

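Enteroendocrine cells, the hormone-secreting cells scattered through the gut lining, were picked out of 9591 small intestinal epithelial cells of irradiated mice by 7 marker genes. In all, 116 cells were chosen, 52 from the KO library and 64 from the WT library, the last being 44 when repeated profiles are counted once. A cell was chosen when Chga, Chgb, Scg3, Scgn, Neurod1, Pax6 and Isl1 together held at least 5 UMIs (unique molecular identifiers, 1 per captured transcript), made at least 5 of every 10000 UMIs of the cell and were represented by at least 2 of the 7 genes. Paneth defensins and Lyz1 had to stay under 10% of UMIs. The levels of those 7 genes therefore describe the choice and are given with no test; hormone genes played no part in it. The study compared VilCreIfnlr1fl/fl mice (KO), in which Villin-Cre, a recombinase driven by a promoter active in the gut epithelium, deletes the floxed interferon-λ receptor gene Ifnlr1, with WT mice. Mice of both genotypes received 11 Gy of gamma rays with head, thorax and upper limbs shielded by lead, and EPCAM-positive, CD45-negative live cells were sorted from the small intestine. The series design gives 96 h after irradiation and the extraction protocol 3 days, and these were not reconciled. Ages of the mice and an unirradiated group are not given in the labels used here. Each genotype was represented by 3 hashtagged samples, taken here as 3 mice (KO1 to KO3 and WT1 to WT3). Cells of the KO samples went into 1 pooled library and those of the WT samples into another, so an effect of the pool cannot be told apart from that of the genotype.

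Enteroendocrine cells arise from crypt progenitors that pass through a short phase of Neurog3 expression and then turn on Neurod1, Isl1, Pax6 and Rfx6. Mature cells sense nutrients and chemicals in the lumen and release peptides such as cholecystokinin, GIP, neurotensin and secretin, while enterochromaffin cells make serotonin with the enzyme tryptophan hydroxylase 1. Interferon-λ signals through the receptor chains encoded by Ifnlr1 and Il10rb to the kinases Jak1 and Tyk2 and switches on interferon-stimulated genes, mainly in epithelia.

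The promoters of 2 enteroendocrine genes and of 1 interferon-stimulated gene are shown because they carry the elements by which these gene groups are classically known: the cAMP response element TGACGTCA in Chgb and Sst, and the interferon-stimulated response element in Isg15, searched as 2 copies of GAAA with any 2 bases between them. Each window runs from 250 bases before to 50 bases after a RefSeq transcription start on GRCm38.p6 and is printed 5′ to 3′ on the gene's strand. Capitals mark every match, on either strand, of the motif named above for that gene. Matches of other motifs are left in lower case. Chgb is on the plus strand (chr2:132781392-132781691), Sst on the minus strand (chr16:23890795-23891094) and Isg15 on the minus strand (chr4:156200769-156201068).
Chgb: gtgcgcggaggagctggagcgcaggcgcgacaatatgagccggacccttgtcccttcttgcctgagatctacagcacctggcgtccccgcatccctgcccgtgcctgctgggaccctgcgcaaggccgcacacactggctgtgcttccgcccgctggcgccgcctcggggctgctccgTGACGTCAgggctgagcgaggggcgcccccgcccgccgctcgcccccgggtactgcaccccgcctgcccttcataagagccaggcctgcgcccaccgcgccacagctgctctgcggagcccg
Sst: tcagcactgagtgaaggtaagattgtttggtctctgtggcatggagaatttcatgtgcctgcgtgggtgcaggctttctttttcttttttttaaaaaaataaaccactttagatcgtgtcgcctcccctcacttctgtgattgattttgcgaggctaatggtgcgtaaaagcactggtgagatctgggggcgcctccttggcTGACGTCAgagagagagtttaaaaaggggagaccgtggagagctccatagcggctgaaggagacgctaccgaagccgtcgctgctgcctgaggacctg
Isg15: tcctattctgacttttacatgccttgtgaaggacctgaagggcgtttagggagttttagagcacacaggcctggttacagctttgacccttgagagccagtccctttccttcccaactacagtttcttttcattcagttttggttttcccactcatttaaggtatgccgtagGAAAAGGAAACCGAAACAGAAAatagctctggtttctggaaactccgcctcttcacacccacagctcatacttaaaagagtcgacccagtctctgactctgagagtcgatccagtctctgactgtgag
The match begins 72 bases before the start in Chgb and 48 bases before it in Sst, and Isg15 has 3 overlapping matches beginning 78 bases before its start. The cAMP response element was found in the windows of 549 of 27025 genes (2.03%), and among the 7 selection genes and 14 hormone genes in 4 of 21: Chgb, Pax6, Sst and Cartpt. The interferon-stimulated response element was found in 3.99% of all genes, in 17 of the 37 interferon-stimulated genes with a window and in 1 of the 21 enteroendocrine genes, Sst. The E-boxes CAGCTG and CATCTG, forms of the site read by Neurog3 and Neurod1 proteins, were present in 7 and 9 of the 21 genes, against 18.3% and 19.2% of all genes. CATCTG was in 9 of the 14 hormone genes and in 0 of the 7 selection genes. Such a match describes letters in a window and does not show binding.

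The KO library held 7370 barcodes, of which 4028 passed the filters, and the WT library held 10453, of which 5563 passed. Of the enteroendocrine cells, the hashtags assigned 44 KO and 36 WT cells to 1 mouse. A further 3 KO and 8 WT cells carried hashtags of more than 1 mouse, and 5 KO and 20 WT cells had none and enter only descriptions by library. Median depth was 21986.5 UMIs in KO and 9470 UMIs in WT enteroendocrine cells, against 10781.5 and 7103 UMIs in the other cells of the KO and WT libraries. The median mitochondrial share was 4.12% in KO and 6.23% in WT enteroendocrine cells, below the 11.4% and 13.9% of other cells of the KO and WT libraries. The libraries shared 28 barcodes, and 0 enteroendocrine cells were among those present in both. Mice KO2 and WT2 stood apart from the other 4 in all other cells, where a list of 20 proliferation genes summed to 1082 CPM (UMIs of a gene per 1000000 UMIs, summed over the cells of a mouse) in KO2 and 806 CPM in WT2 and to between 45.6 and 112 CPM in the rest. The targeted gene, Ifnlr1, was at 27.7, 16.3 and 21.9 CPM in other cells of mice KO1 to KO3 and at 22.6, 15.4 and 26.5 CPM in those of WT1 to WT3, with overlapping groups. The labels do not say which exons are floxed and the libraries read transcript 3′ ends, so this level does not check the genotype.

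Some enteroendocrine profiles of the WT library repeated each other. Cells of a library were compared in pairs over genes with at least 10 UMIs in the pair, a check chosen after seeing the data, and barcodes whose log counts correlated above 0.76 were joined into sets. In the KO library 0 of 1326 pairs passed, with a highest correlation of 0.755. In the WT library 67 of 2016 pairs passed, which joined 25 barcodes into 5 sets of 9, 6, 6, 2 and 2, and the other WT pairs reached at most 0.756. A chi-square statistic per degree of freedom, near 1 when 2 barcodes differ by sampling noise alone, was 1.98 in the closest KO pair and 0.92 in the closest WT pair. Joined pairs reached 11.9 in the set of 9 and 3.18 in a set of 6, so some differed by more than sampling noise. WT pairs that were not joined went down to 1.62. The threshold lies just above the highest KO correlation, so the 0 KO pairs follow from it. Each barcode of the set of 9 held 47 to 196 Gip UMIs, 39 to 139 Cck UMIs and 135 to 375 UMIs of goblet genes; 3 of these barcodes were assigned to WT1 and 6 had no hashtag. A set of 6 held Cck, Sct and Nts and had no hashtags, and the other set of 6 held Sct, Nts and Pyy, with 3 barcodes of WT3 and 3 without hashtag. In all, 17 of the 25 had no hashtag. Counted once, the sets leave 44 WT enteroendocrine profiles and 96 in both libraries, and counts that rest on them are given both ways. Values by mouse use every barcode. Other cells were not compared in this way, and the origin of the repeats was not tested.

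Near the edge of the selection, 10 chosen cells had only 5 to 9 UMIs of the 7 genes, and a sum of 10 other endocrine genes stood at 3071 CPM in them, against 6153 CPM in the 106 cells above that range. Just outside, 11 cells with 3 or 4 such UMIs had 670 CPM of those other genes, 10 deep cells below 5 UMIs per 10000 had 334 CPM, and 6 cells with at least 5 UMIs of 1 gene had 6.32 CPM. A further 12 barcodes met the marker rule but exceeded the 25% mitochondrial limit, 5 in the KO and 7 in the WT library.

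Enteroendocrine cells made up 1.29% of the KO library (95% exact binomial interval 0.966 to 1.69%) and 1.15% of the WT library (0.887 to 1.47%); these intervals cover counting error only. With repeated profiles counted once the WT share was 0.794% (0.577 to 1.06%). By mouse they numbered 14, 19 and 11 in KO1 to KO3 and 8, 13 and 15 in WT1 to WT3, which is 1.36%, 1.79% and 1.36% of the assigned cells in KO mice and 0.965%, 1.47% and 1.41% in WT mice. The groups overlapped: WT2 and WT3 lay above KO1 and KO3. The mean share was 1.5% ± 0.249 in KO mice and 1.28% ± 0.276 in WT mice (SD, n = 3 each), a difference of 0.222 percentage points (2-sided exact permutation p = 0.6, where 0.1 is the smallest p that 3 against 3 mice allow). With repeated profiles counted once, the WT shares were 0.726%, 1.47% and 1.22% and the difference was 0.363 percentage points (exact permutation p = 0.3). In cells thinned to 2000 UMIs, the shares were 1.17%, 1.42% and 1.25% in KO mice and 0.874%, 1.5% and 1.25% in WT mice, and the difference was 0.0779 percentage points (exact permutation p = 0.8).

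All 7 selection genes were measured in every mouse. Chgb, a granin packed into secretory granules, had 17707, 7252 and 7027 CPM in KO mice and 2870, 19363 and 2657 CPM in WT mice. Chga, the granin used most often as the endocrine marker, had 4981, 712 and 1985 CPM in KO mice and 1343, 5234 and 873 CPM in WT mice. Neurod1, a transcription factor of the maturing endocrine cell, had 579, 440 and 232 CPM in KO mice and 936, 492 and 780 CPM in WT mice. The highest granin values belonged to KO1 among KO mice and to WT2 among WT mice, so each genotype held both high and low mice. Pax6, Isl1, Scg3 and Scgn lay between 113 and 370 CPM in all 6 mice.

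Summed by mouse, genes outside the selection bore out the label, though not for every single cell. Summed over the list, 14 hormone genes made 87687, 42615 and 112422 CPM in enteroendocrine cells of KO1 to KO3 and 94962, 61117 and 159960 CPM in those of WT1 to WT3, against 118 ± 23.7 CPM in other cells of KO mice and 139 ± 20.4 CPM in other cells of WT mice (SD, n = 3 each). A list of 20 transcription factors known from endocrine differentiation summed to between 1896 and 5423 CPM in the 6 mice, against 153 ± 20.8 CPM in other cells (SD, n = 6). A list of 20 genes for granules and prohormone processing summed to 10045 ± 3407 CPM, against 249 ± 32.3 CPM in other cells, and 12 channel genes to 4481 ± 1219 CPM, against 13.2 ± 8.23 CPM (SD, n = 6 each). Since the cells were chosen by genes of the same program, these contrasts with other cells are descriptions. Some chosen cells held many enterocyte marker UMIs, such as 883 of 12462 in a WT3 cell and 352 of 10472 in a KO2 cell. Of hormone genes these cells had 6 Sct UMIs and 0 UMIs. Among the 19 cells with no leading hormone, a class defined below that holds both, 15 had Tph1 UMIs. The WT3 and KO2 cells just named were not among those 15, with 0 Tph1 UMIs each. Their choice rested on 10 UMIs of selection genes in the WT3 cell and 6 in the KO2 cell, from 2 genes each.

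Among genes with a UMI in at least 25% of enteroendocrine cells, the 10 with the highest ratios to other cells were, in order, Map1b, Slc38a11, Ffar1, Gm26871, Sphkap, Myt1, Nts, Nrg1, Lmx1a and Galr1. The microtubule-associated protein gene Map1b averaged 347 ± 91.6 CPM in enteroendocrine cells of the 6 mice and 0.0580 CPM in other cells. The fatty acid receptor gene Ffar1 averaged 145 ± 115 CPM, against 0 UMIs, and the transcription factor gene Myt1 115 ± 23.4 CPM, against 0.0226 CPM. The growth factor gene Nrg1 averaged 2079 ± 1306 CPM, against 0.550 CPM. Of the genes further down that order, Unc79 and Unc80, subunits of the sodium leak channel complex, averaged 170 ± 67.7 and 78.4 ± 36.5 CPM in enteroendocrine cells, against 0.0823 CPM and 0 UMIs in other cells. The potassium channel gene Kcnj3 averaged 837 ± 563 CPM, the sodium channel gene Scn3a 391 ± 280 CPM and the sodium-calcium exchanger gene Slc8a1 1540 ± 903 CPM, against under 1 CPM of each in other cells. Rfx6, a transcription factor required for endocrine identity, averaged 669 ± 389 CPM and was seen in 72.4% of the cells. The vesicle priming gene Cadps and the presynaptic gene Rimbp2 were also among the 25 genes with the highest ratios.

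Each cell was described by its leading hormone, the hormone gene with the most UMIs if it had at least 10. Secretin (Sct) led in 31 of the 116 cells, neurotensin (Nts) in 18, the incretin GIP (Gip) in 17, tachykinin 1 (Tac1), the precursor of substance P, in 13, cholecystokinin (Cck) in 10, somatostatin (Sst) in 4, ghrelin (Ghrl) in 3 and Cartpt in 1. No hormone led in 19 cells. With repeated profiles counted once, Sct led in 23 of 96 cells, Nts in 16, Gip in 11, Cck in 8 and none in 17, while the other counts stayed as they were. The 9 Gip-led WT barcodes then came to 3, beside 8 in the KO library. Glucagon precursor (Gcg), peptide YY (Pyy), Iapp, Insl5, gastrin (Gast) and Ucn3 led in 0 cells. Insl5, a peptide of the colon, had 0 UMIs in all 116 cells, and in cells thinned to 2000 UMIs the upper 95% exact bound of its share was 6.98% for 51 KO and 8.22% for 43 WT profiles with repeats counted once, a limit on cells with a UMI at this depth and not on cells that express it. The leading transcript could take a large part of a cell: the median was 9.23% of all UMIs for Sst, 7.5% for Nts, 6.13% for Sct, 4.38% for Cck and 4.05% for Gip, against 0.349% for Tac1.

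**Figure D1:**
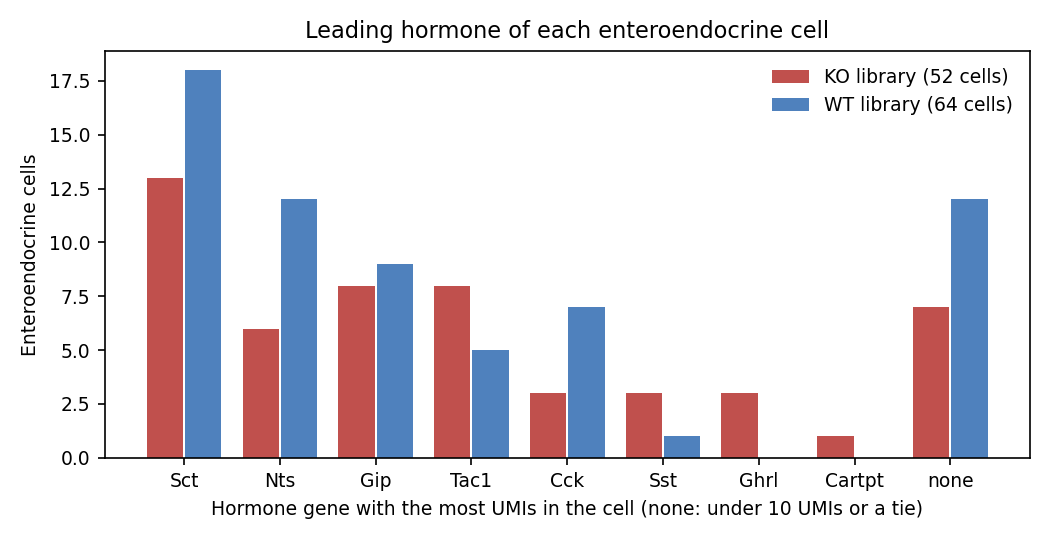
Number of enteroendocrine cells (vertical axis) by leading hormone gene (horizontal axis), with KO library bars left of WT library bars. Sct leads in 13 KO and 18 WT cells, Nts in 6 KO and 12 WT cells and Tac1 in 8 KO and 5 WT cells; repeated profiles are drawn each, and counted once they leave 10 Sct-led, 10 Nts-led and 5 Tac1-led WT cells.

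Most cells carried several hormones. In 84 of the 116 cells at least 2 hormone genes reached 10 UMIs, and in 55 at least 3; with repeated profiles counted once these were 66 and 39 of 96. Sct was the common partner: it reached 10 UMIs in 82 cells, among them 42 of the 47 with Cck, 33 of the 34 with Nts, 18 of the 18 with Pyy and 11 of the 11 with Gcg. Counted once, the same pairs were 31 of 34, 23 of 24, 13 of 13 and 9 of 9. Gcg never appeared at this level without Cck (11 of 11). Other pairs were exclusive in these cells: 0 of the 34 Nts cells had 10 UMIs of Gip, and 0 of the 17 Tac1 cells had 10 UMIs of Gip, Gcg or Ghrl. Sst stood with Ghrl in 5 of 5 cells and Iapp with Sst in 4 of 4. Hormone UMIs were not confined to enteroendocrine cells, and the part of free RNA captured with a cell was not tested. In cells thinned to 2000 UMIs, Sct was seen in 74.5% of KO and 88.9% of WT enteroendocrine cells. Among other cells it was seen in 11.1% of KO and 12.7% of WT cells. Gip was then seen in 21.6% and 20.6% of KO and WT enteroendocrine cells and in 6.2% and 1.0% of other KO and WT cells. The share of WT cells with Gip was 11.6% when repeated profiles were counted once. Ghrelin rested on a few cells, since 1 KO cell with no hashtag held 24758 Ghrl UMIs, 42.6% of its own transcripts and 83.9% of all Ghrl UMIs in enteroendocrine cells.

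Tac1-led cells had the profile of enterochromaffin cells. Tph1, the rate-limiting enzyme of serotonin synthesis in the gut, was seen in 13 of 13 of them, at 1442 CPM over the class, and in 0 of the 17 Gip-led and 0 of the 4 Sst-led cells. Ddc, the next enzyme of that pathway, was at 1798 CPM, the vesicular monoamine transporter gene Slc18a1 at 978 CPM, and the transcription factor Lmx1a, needed for Tph1 expression, at 1442 CPM. Chga and Chgb were highest here, at 11254 CPM and 34331 CPM. The related granule genes Scg2 and Scg3 were not, at 6.72 CPM and 94.1 CPM here, against 2541 CPM of Scg2 in Cck-led and 397 CPM of Scg3 in Nts-led cells. The irritant channel gene Trpa1 stood at 598 CPM, the small GTPase gene Rab3c at 2813 CPM and Scn3a at 1344 CPM, while Isl1 and Scgn had 0 UMIs. Serotonin genes were also found elsewhere: Tph1 was seen in 19 of the 31 Sct-led cells, at 1401 CPM over the class, and in 15 of the 19 cells with no leading hormone.

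Nrg1, a ligand of ErbB receptors, differed in level between the classes. It stood at 5202 CPM in Tac1-led cells (UMIs in 11 of 13), at 4129 CPM in cells with no leading hormone (12 of 19) and at 2825 CPM in Sct-led cells (9 of 31). In Gip-led cells it stood at 751 CPM, from 2 of 17 cells, in Nts-led cells at 22.5 CPM (2 of 18), in Cck-led cells at 11.7 CPM (1 of 10), and in the 4 Sst-led and 3 Ghrl-led cells at 0 UMIs. The amino acid transporter gene Slc38a11 had a like distribution, with 457 CPM in Tac1-led cells, 317 CPM in cells with no leading hormone, 272 CPM in Sct-led cells and 0 UMIs in Gip-led and Nts-led cells.

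Nts-led cells carried Sct at 37135 CPM and Pyy at 16320 CPM, though only 7 of the 18 had a Pyy UMI. The adhesion receptor gene Adgrd1 was seen in 18 of 18 of them, at 1751 CPM, and in 0 of the 10 Cck-led, 0 of the 17 Gip-led and 0 of the 13 Tac1-led cells. It also stood at 197 CPM in Sct-led cells (7 of 31) and at 31.4 CPM in cells with no leading hormone (4 of 19). In Nts-led cells the Ffar1 level was 359 CPM and the Kcnj3 level 1602 CPM. Gip-led cells carried 109964 CPM of Gip itself, 1805 CPM of Rfx6 (16 of 17 cells) and 372 CPM of Pax6. Cck-led cells carried 86340 CPM of Cck, 18202 CPM of Gcg (9 of 10 cells), 1138 CPM of the transcription factor gene Etv1 and the Scg2 level given above. Scg2 was at 3.48 CPM in cells with no leading hormone. Counting repeated profiles once moved none of the class levels printed here by more than 1.5 times.

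The 4 Sst-led cells, the D cells that restrain other endocrine cells, had 117840 CPM of Sst, 7247 CPM of Iapp and 637 CPM of Isl1. Hhex, the transcription factor known from somatostatin cells of the pancreas, was seen in 4 of 4 of them at 402 CPM and in 1 of the 17 Gip-led cells. The only WT cell among the 4 Sst-led cells also held 2161 UMIs of the goblet genes Muc2, Fcgbp and Clca1. Neurog3, the gene of the early lineage, had UMIs in 4 cells, 3 from KO2 and 1 from WT2, with 1 to 64 UMIs each. The cell with 1 Neurog3 UMI was Ghrl-led, with 2522 Ghrl UMIs among 99125, and is not marked as early by it. Of these 4, 3 also had Neurod2 UMIs, 2 had Pax4 UMIs and 2 had no leading hormone. They came from the 2 mice whose other cells had the high proliferation sums.

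**Figure D2:**
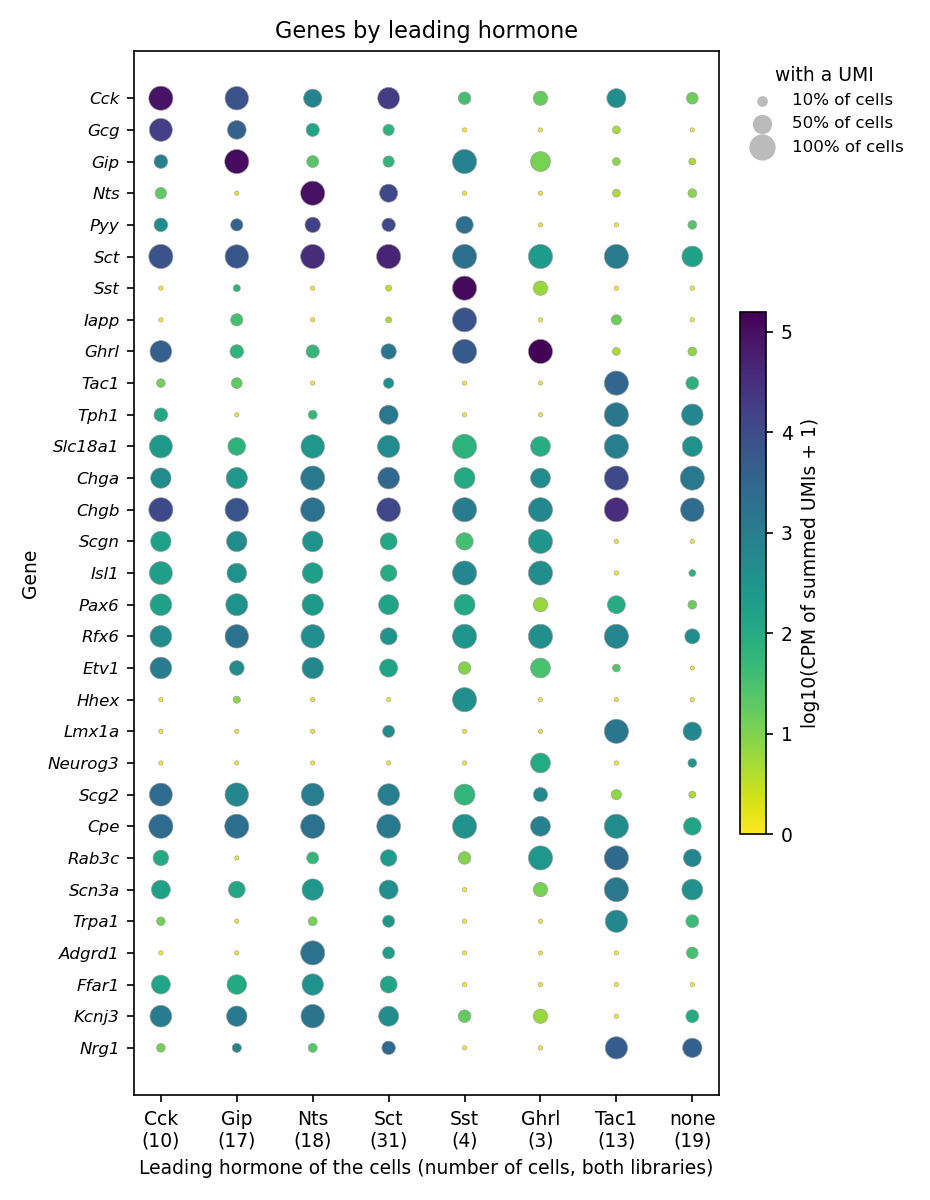
Level of 31 genes (rows) in cells grouped by leading hormone (columns, with cell numbers); colour is log10(CPM + 1) of UMIs summed over the class and dot area the share of cells with a UMI. Tph1, Lmx1a, Trpa1 and Nrg1 have their highest levels in Tac1-led cells, Adgrd1 in Nts-led cells and Hhex in Sst-led cells. For Tph1 the order turns when repeated profiles are counted once, with 1471 CPM in Sct-led and 1442 CPM in Tac1-led cells.

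The comparison of genotypes asks whether loss of the interferon-λ receptor in the epithelium altered these cells after irradiation. UMIs were summed per mouse over the enteroendocrine cells (309145, 568434 and 193956 in KO1 to KO3 and 81190, 264066 and 260090 in WT1 to WT3) and tested with edgeR's quasi-likelihood test with Benjamini-Hochberg adjustment. No gene of 4837 tested passed an adjusted p of 0.05: 0 were called higher in KO and 0 lower, a background of 0%, and the lowest adjusted p was 0.99. At an unadjusted p under 0.05, 98 genes were higher (2.03%) and 81 lower (1.67%), while DESeq2 called 1 gene, Dgkb. Leaving out WT2 gave 7 calls by edgeR, and leaving out any other mouse gave 0. The labels name each mouse of a genotype separately, and the pool they share is common to the group, so these p-values measure the spread between mice within pools.

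Of the 14 hormone genes, 10 passed the low-count filter and 0 were called. Nts was at 12483, 5941 and 1031 CPM in KO mice and at 77497, 18624 and 23115 CPM in WT mice. Every KO mouse lay below every WT mouse for this gene, against a background of 3.16% of tested genes that lay so. By edgeR its log2 fold change was -2.71 ± 1.30 (SE, adjusted p = 0.99). In cells thinned to 2000 UMIs, Nts was seen in 13.7% of 51 KO and 44.4% of 63 WT enteroendocrine cells, with exact 95% binomial intervals of 5.70 to 26.3% and 31.9 to 57.5% that cover counting error only, against 0.6% and 2.3% of other KO and WT cells. With repeated profiles counted once, it was seen in 41.9% of 43 WT profiles (27.0 to 57.9%). Unthinned shares were 17.3% in KO and 48.4% in WT enteroendocrine cells. The cells of a library come from the same 3 mice, so the separation of these intervals is not a test of the genotype.

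Gip was at 18545, 16619 and 54770 CPM in KO mice and at 2833, 18022 and 108 CPM in WT mice. With repeated profiles counted once, WT1 stood at 1276 CPM. WT2 lay within the KO values and WT3 far below them (edgeR log2 fold change 2.13 ± 1.48 SE, adjusted p = 0.99). Sct had 12163, 8133 and 6476 CPM in KO mice and 10371, 12046 and 57330 CPM in WT mice. Cck had 26974, 1684 and 6280 CPM in KO mice and 3917, 4109 and 36053 CPM in WT mice, a spread of more than 8-fold within each genotype. Sst was listed at 0, 3960 and 37622 CPM in KO mice and at 0, 0 and 15264 CPM in WT mice, since the few Sst-led cells belonged to few mice. With 8 to 19 cells per mouse, a hormone carried by a few cells moved with the number of those cells, and fewer cells of a type and less RNA per cell cannot be told apart in such sums.

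Of the serotonin genes, 6 of 7 passed the filter and 0 were called. Tph1 was at 945, 621 and 356 CPM in KO mice and at 185, 462 and 377 CPM in WT mice, with overlap (edgeR log2 fold change 0.83 ± 0.46 SE, adjusted p = 0.99). Tac1 marks only part of the cells with Tph1: WT1 and WT3, with 0 UMIs of Tac1, had Tph1 UMIs in 2 and 6 cells. Tac1 was at 249, 679 and 567 CPM in KO mice and at 0, 1170 and 0 CPM in WT mice. It was the only hormone gene called when WT2 was left out (edgeR adjusted p = 0.0319, against 0.904 to 1.0 under the other alternatives), and the remaining WT mice then have 0 UMIs, so the value fitted there is neither a fold nor a bound. Iapp was at 12.9, 433 and 2413 CPM in KO mice and at 0, 0 and 473 CPM in WT mice.

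**Figure D3:**
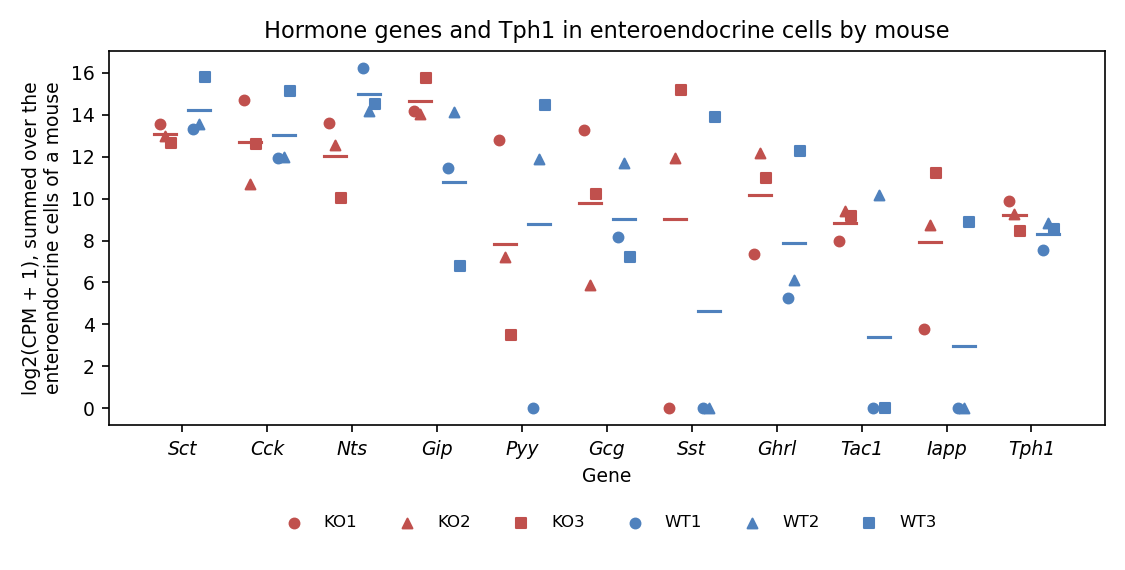
Level of 10 hormone genes and Tph1 as log2(CPM + 1) over the enteroendocrine cells of each mouse; circles, triangles and squares are mice 1, 2 and 3, KO left and WT right, and lines are means of the log2 values. KO points lie below all WT points for Nts, while the genotypes overlap for the other genes shown.

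Lists of the machinery behind secretion gave 0 calls as well. The medians that follow stand beside a median log2 fold change of 0.02 over all 4837 genes, with 2492 positive and 2345 negative. Transcription factors had 13 of 20 genes tested, a median of 0.19 and 9 positive values, and granule genes 18 of 20, a median of -0.28 and 12 negative values. Ptprn2, a granule membrane protein, was at 3257, 1708 and 2356 CPM in KO mice and at 1392, 5669 and 1596 CPM in WT mice. The channel list had 7 of 12 genes tested and a median of 0.22. The calcium channel subunit gene Cacna1a was at 2261, 1604 and 1588 CPM in KO mice and at 1848, 2549 and 1211 CPM in WT mice. Sensors had 8 of 16 genes tested, a median of -0.89 and 7 negative values. Slc5a1, the sodium-glucose cotransporter that triggers GIP release, was at 162, 93.2 and 170 CPM in KO mice and at 357, 186 and 231 CPM in WT mice (edgeR log2 fold change -0.92 ± 0.38 SE, adjusted p = 0.99), although other cells held it at 425 ± 182 CPM in KO mice and 555 ± 175 CPM in WT mice.

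Interferon-stimulated genes were lower in enteroendocrine cells than in other cells of the same mouse in 6 of 6 mice. The sum of the list, 48 of whose 50 genes are in the annotation, was 1294, 1012 and 1294 CPM in enteroendocrine cells of KO1 to KO3 and 1835, 1185 and 2180 CPM in those of WT1 to WT3. KO values and WT2 overlapped. The means were 1200 ± 163 CPM in KO and 1734 ± 505 CPM in WT mice (SD, n = 3 each), a mean difference of log2 values of -0.50 (2-sided exact permutation p = 0.3). WT1 and WT3, with the higher sums, also had the most transcripts of enterocytes and goblet cells. Enterocyte markers summed to 4008, 7104 and 9069 CPM in KO and 12415, 3571 and 14276 CPM in WT enteroendocrine cells, and goblet markers to 3827, 3102 and 2624 CPM in KO and 57864, 1931 and 24207 CPM in WT ones. Their part in the sum was not tested, beyond a difference of -0.43 without the cells that also met a goblet rule (exact permutation p = 0.2, with WT1 dropped). In other cells the means were 1846 ± 615 CPM in KO and 3784 ± 985 CPM in WT mice, where every KO mouse lay below every WT mouse. The KO to WT ratio of means was 0.692 in enteroendocrine cells and 0.488 in all other cells. It was 0.491 in cells of an enterocyte gate, 0.553 in cells of a goblet gate and 0.710 in cells of a Paneth gate. The last rests on 3 to 15 cells per mouse. Sums in the Paneth gate were below those in enteroendocrine cells in every mouse, with means of 559 CPM in KO and 788 CPM in WT mice. Sums in the enterocyte and goblet gates were above them, so a low level is not particular to enteroendocrine cells.

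The difference between cell classes was tested within mice. The list sum in enteroendocrine cells was 0.554, 0.875 and 0.633 times that of other cells in KO mice and 0.487, 0.422 and 0.456 times in WT mice. All 3 KO ratios lay above all 3 WT ratios, a mean difference of 0.57 on the log2 scale, and the exact permutation p of 0.1 is the smallest this design allows, so it cannot pass 0.05. Transcripts of other cell types were present in the same sums: the enterocyte gene Apoa1 stood in enteroendocrine cells at 6.59 to 32.0% of its level in other cells over the 6 mice and the Paneth gene Defa24 at 0.565 to 3.23%. Their part in the interferon-stimulated values was not tested.

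**Figure D4:**
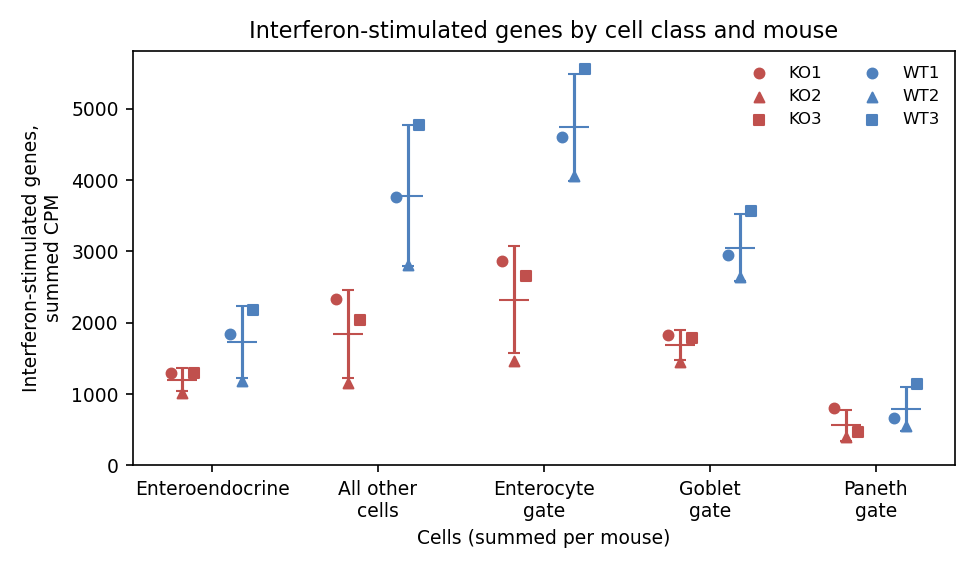
Summed CPM of the interferon-stimulated list in enteroendocrine cells, all other cells and 3 gates (horizontal axis); points are mice (circle 1, triangle 2, square 3), KO left and WT right, with mean and SD. In enteroendocrine cells the KO values of 1012 to 1294 CPM overlap the WT values of 1185 to 2180 CPM, while in all other cells the genotypes do not overlap.

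Single interferon-stimulated genes behaved unequally in these cells. Of the list, 14 genes passed the filter. Of these, 13 of the 14 had negative values, with a median log2 fold change of -0.49 against 0.02 over all genes, 0 were called and 3 were lower at an unadjusted p under 0.05, as were 1.67% of all genes. Of the 14, 3 were lower in every KO mouse than in every WT mouse, as were 3.16% of all tested genes. Ifi27l2b, among the list's highest genes, was at 64.7, 73.9 and 61.9 CPM in KO mice. Its WT values of 135, 49.2 and 154 CPM overlapped these. Parp12, Irf7 and Isg15 are given besides the genes named by rule. Parp12 was at 25.9, 21.1 and 36.1 CPM in KO mice and at 61.6, 41.7 and 92.3 CPM in WT mice, without overlap. Irf7, the factor that amplifies interferon responses, was at 51.8, 28.2 and 36.1 CPM in KO mice and at 86.2, 37.9 and 119 CPM in WT mice, and stood at 31.1 to 54.0% of its level in other cells. Isg15, a ubiquitin-like modifier whose promoter is printed above, was at 3.23, 10.6 and 5.16 CPM in KO mice. In WT mice it was at 86.2, 11.4 and 53.8 CPM. These values, 3.68 to 32.0% of its level in other cells, rest on few UMIs, and no test of this gene is given. Thinned to 2000 UMIs, it was seen in 3.92% of KO and 25.4% of WT enteroendocrine cells and in 16.3% and 36.8% of other KO and WT cells, and in 23.3% of WT profiles with repeats counted once. Lgals3bp, a secreted glycoprotein, went the other way between classes. It was at 359, 260 and 402 CPM in enteroendocrine cells of KO mice and at 296, 284 and 415 CPM in those of WT mice, against 47.4 ± 19.3 CPM in other cells of KO mice and 73.8 ± 19.8 CPM in other cells of WT mice. Ifi27 was likewise higher in enteroendocrine than in other cells in 6 of 6 mice, at 166 to 431% of the level there. Without these 2 genes, left out after their values were seen, the sum was 822, 684 and 835 CPM in KO mice and 1490, 841 and 1657 CPM in WT mice, so that the groups no longer overlapped, though KO3 and WT2 were close.

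The receptor and kinase genes were sparse. Ifnlr1 was at 3.23, 14.1 and 46.4 CPM in enteroendocrine cells of KO mice and at 12.3, 26.5 and 7.69 CPM in those of WT mice, and in cells thinned to 2000 UMIs it was seen in 5.88% of KO and 3.17% of WT enteroendocrine cells, against 8.20% and 6.10% of other KO and WT cells. Il10rb, its partner chain, averaged 41.4 ± 9.51 CPM over the 6 mice, against 48.8 ± 3.76 CPM in other cells. The interferon-γ receptor gene Ifngr1 averaged 40.5 ± 13.1 CPM in enteroendocrine cells and 153 ± 30.2 CPM in other cells, and was lower in 6 of 6 mice. Jak1 averaged 176 ± 45.6 CPM in enteroendocrine cells and 110 ± 21.1 CPM in other cells (SD, n = 6 each). Of the 9 receptor and kinase genes, 6 were tested between genotypes, with a median log2 fold change of -0.21 and 0 called.

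Genes of antigen presentation and of pyroptosis, the lytic cell death named in the study's title, were also lower in these cells than in all other cells. The Paneth gate had lower means still, 1517 CPM in KO and 1409 CPM in WT mice for antigen presentation. Its pyroptosis means were 446 CPM in KO and 439 CPM in WT mice. KO1 went the other way for antigen presentation, with 2581 CPM in the Paneth gate and 2002 CPM in enteroendocrine cells. Means in the enterocyte and goblet gates were above those of enteroendocrine cells. Antigen presentation genes summed to 1903 ± 149 CPM in KO and 2277 ± 368 CPM in WT enteroendocrine cells, against 3683 ± 1032 and 4714 ± 856 CPM in other KO and WT cells. Of 28 genes 11 were tested, with a median log2 fold change of -0.28 and 0 called. Pyroptosis genes summed to 906 ± 125 CPM in KO and 1008 ± 218 CPM in WT enteroendocrine cells, against 2104 ± 117 and 1972 ± 188 CPM in other KO and WT cells (SD, n = 3 each). Of 27 genes 9 were tested, with a median of -0.34 and 0 called. Gsdmd, the pore-forming protein of pyroptosis, was at 61.5, 61.6 and 108 CPM in KO enteroendocrine cells and at 86.2, 68.2 and 123 CPM in WT ones, against 325 ± 160 and 348 ± 132 CPM in other KO and WT cells. Zbp1, an interferon-induced sensor of nucleic acids, was at 6.47, 10.6 and 5.16 CPM in KO enteroendocrine cells and at 24.6, 26.5 and 26.9 CPM in WT ones. It rests on 25 UMIs, did not pass the low-count filter and was not tested, and was singled out after its values were seen. The gasdermin C genes Gsdmc2, Gsdmc3 and Gsdmc4 each averaged under 3 CPM in enteroendocrine cells.

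After irradiation, targets of p53, the factor activated by DNA damage, summed to 2445, 1469 and 2088 CPM in KO and 1712, 1522 and 1984 CPM in WT enteroendocrine cells. They were above other cells of the same mouse in 6 of 6 mice, 1870 ± 374 CPM in enteroendocrine cells against 1103 ± 253 CPM (SD, n = 6 each). Cdkn1a, the cell cycle inhibitor p21, was at 805, 586 and 706 CPM in KO enteroendocrine cells and at 456, 447 and 619 CPM in WT ones (edgeR log2 fold change 0.38 ± 0.36 SE, adjusted p = 0.99). Of the 20 p53 targets 10 were tested, with a median of -0.01 and 0 called. Proliferation genes summed to 67.9, 380 and 82.5 CPM in KO and 24.6, 133 and 34.6 CPM in WT enteroendocrine cells, highest in KO2 and WT2, and 0 of 20 passed the filter. Genes of the unfolded protein response, which secretory cells rely on, had 13 of 16 tested, a median log2 fold change of 0.39 and 0 called. Every KO mouse lay above every WT mouse in 3 of the 13 and below in 2, against 6.02% and 3.16% of all genes. Hsp90b1, a chaperone of the endoplasmic reticulum, was at 569, 607 and 495 CPM in KO mice and at 480, 371 and 265 CPM in WT mice, with no overlap.

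Of the genes with the smallest unadjusted p, none of which passed the adjusted threshold, those higher in KO were Defa30, Anapc13, Dgkb, Pbx3, Ndufs6, Itga4, Gm10076, Mt1, Hspe1 and Defa24. Dgkb, which encodes a diacylglycerol kinase, was at 576, 396 and 61.9 CPM in KO mice and at 0, 11.4 and 34.6 CPM in WT mice, against 0.333 ± 0.114 and 0.228 ± 0.0425 CPM in other KO and WT cells. Its edgeR log2 fold change was 4.09 ± 0.87 (SE, adjusted p = 0.99), and its DESeq2 adjusted p was 0.0343, within a range of 1.06e-12 to 1.0 over all alternatives. Pbx3, a homeodomain cofactor, was at 262, 174 and 191 CPM in KO mice and at 12.3, 72.0 and 65.4 CPM in WT mice (edgeR log2 fold change 1.81 ± 0.41 SE, adjusted p = 0.99). For both genes every KO mouse lay above every WT mouse, as did 291 of the 4837 tested genes (6.02%). Itga4, an integrin chain, was at 116, 75.6 and 98.0 CPM in KO mice and at 0, 34.1 and 19.2 CPM in WT mice. Mt1, a metallothionein, was at 236, 853 and 258 CPM in KO mice and at 12.3, 129 and 19.2 CPM in WT mice, but other cells ran the same way, at 1191 ± 571 CPM in KO mice and 322 ± 290 CPM in WT mice.

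Genes lower in KO with the smallest unadjusted p, which did not pass either, were Gcnt3, Muc2, Fcgbp, Qsox1, Gda, Reg3g, Anpep, Zg16, Tle1 and Nostrin, of which Muc2, Fcgbp and Zg16 are products of goblet cells. Muc2, the mucin of intestinal mucus, was at 90.6, 79.2 and 92.8 CPM in KO enteroendocrine cells and at 3412, 64.4 and 2342 CPM in WT ones. Only WT1 and WT3 were high. The goblet marker sums given above were likewise high in WT1 and WT3. In WT3, 1 Sst-led cell held 2161 UMIs of Muc2, Fcgbp and Clca1 among its 34398 UMIs. The other enteroendocrine cells of WT3 held at most 8 UMIs of these genes. Of the 116 cells, 23, 6 KO and 17 WT, also met the rule for goblet cells (at least 5 UMIs, and 5 per 10000, from at least 2 of Muc2, Fcgbp and Clca1). The 17 WT cells came to 8 with repeated profiles counted once, and WT1 then stood at 33367 CPM of goblet markers and 2103 CPM of Muc2. Without those cells, an alternative chosen after seeing the data in which WT1 falls below 5 cells and drops out, the log2 fold change of Muc2 was 0.33 in place of -4.58. Of the goblet markers 7 were tested, with a median of -1.69 and 0 called.

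Markers of other cell types were read in the same way. The 12 enterocyte markers summed to 6727 ± 2552 CPM in KO and 10087 ± 5719 CPM in WT enteroendocrine cells, against 38632 ± 13329 and 46195 ± 15485 CPM in other KO and WT cells, and 9 were tested, with a median log2 fold change of -0.66. Sis, the sucrase-isomaltase of the brush border, was above other cells of the same mouse in 6 of 6 mice, at 149 to 1821% of their level, with 1203, 924 and 459 CPM in KO enteroendocrine cells. The 10 Paneth markers summed to 527, 387 and 866 CPM in KO and 172, 292 and 192 CPM in WT enteroendocrine cells, and to between 6787 and 48224 CPM in other cells; their part in the higher Defa30 and Defa24 of KO cells was not tested. The 10 tuft markers summed to 11.4 to 172 CPM, highest in KO2, with 0 of 10 tested, and the 7 stem markers to 61.6 to 902 CPM, also highest in KO2, with 1 tested. The 11 immune markers summed to 0 to 25.9 CPM, the 10 stromal markers to 49.3 to 420 CPM, of which Vim gave 24.6 to 408 CPM, and the 10 markers of enteric neurons and glia to 83.3 to 431 CPM, of which the receptor gene Ret gave 38.5 to 209 CPM.

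A last fit asked whether the genotype effect differed between enteroendocrine and other cells, with the mouse as a block. By edgeR, 0 of 13231 genes had an adjusted p under 0.05 for the interaction (0% in each direction), 210 had a positive and 143 a negative value at an unadjusted p under 0.05 (1.59% and 1.08%), and the lowest adjusted p was 0.0545, for Olfm4. Adding the hashtag number as a replicate block gave 26 genes, 14 positive and 12 negative, and leaving out 1 mouse gave 4 (without WT1) to 49 (without WT2). In other cells, mice of equal number correlated at 0.742, 0.941 and 0.809, but KO1 also correlated with WT3 at 0.876. Olfm4, a stem cell marker, rested on KO2, with 570 CPM there and 12.3 CPM or less in enteroendocrine cells of the other 5 mice. Duox2 and its maturation factor gene Duoxa2, which form a hydrogen peroxide generating oxidase, were next. Duox2 was at 71.2, 66.9 and 25.8 CPM in KO and 0, 3.79 and 3.84 CPM in WT enteroendocrine cells, against 95.1 ± 45.3 and 119 ± 26.8 CPM in other KO and WT cells (edgeR log2 difference of effects 4.68 ± 0.86 SE, adjusted p = 0.0796, and 2.26e-05 with the block, within a range of 2.26e-05 to 1.0 over 14 alternatives). Duoxa2 was at 29.1, 36.9 and 36.1 CPM in KO and 12.3, 0 and 3.84 CPM in WT enteroendocrine cells, against 58.9 ± 17.5 and 97.5 ± 29.2 CPM in other KO and WT cells. The values of both genes in KO enteroendocrine cells lay above all WT ones, as did those of 6.02% of the genes tested between genotypes. Both genes were named for their small p in this fit, so the separation adds no support. With 81190, 264066 and 260090 UMIs in WT1 to WT3, their WT values rest on very few UMIs and are at the floor. Of the interferon-stimulated list, 45 genes entered this fit with a median log2 difference of 0.63, against 0.06 over all genes, 37 positive values and 0 called.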

How the data were processed

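Single-cell 3' RNA libraries of 2 pools, each of 3 hashtagged mice, were analysed. The authors deposited UMI counts per gene and barcode and per hashtag; per the submitters' processing notes these came from Cell Ranger 7.0.1 on mm10, with Seurat 4.1.0 also named, and other settings are not given in the sources used here. Cells with at least 1000 UMIs, 500 genes and at most 25% mitochondrial UMIs were kept. Hashtags were called with HTODemux (Seurat 5.3.0, quantile 0.99) on barcodes past the UMI and gene minimums; hashtag doublets were left out of values by mouse, and no caller of doublets within a mouse was run. Counts were summed per mouse and tested with edgeR 4.0.16 (TMM, filterByExpr, quasi-likelihood, threshold 0.05) under R 4.3.3, with DESeq2 1.42.0 as an alternative; the fits were tested on simulated data. Sums and shares were compared by exact permutation (scipy 1.17.1). CPM is per 1000000 UMIs of the summed cells, not scaled by length. For each direction the 10 genes of smallest p were named, besides all selection, hormone and serotonin genes and the 4 highest genes of each other list. The members, lists and tests were chosen with earlier results of these data known. Repeated profiles were sought among enteroendocrine cells by pairwise correlation of log counts, and no barcode was removed from the values by mouse for it. Alternatives are described in the closing section. Mice of equal hashtag number deviated together in other cells (correlations of 0.742, 0.941 and 0.809 across genes), but KO1 also correlated with WT3 at 0.876, and the labels state no pairing. UMIs limit precision: enteroendocrine sums held 81190 to 568434 UMIs per mouse.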

Additional observations from a re-analysis of the deposited data

How the results depend on the processing

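The difference in share, the interferon-stimulated sum and its difference between cell classes kept their direction and moved by less than the spread between mice under every alternative run. The share difference of 0.222 percentage points still moved by over 1.5 times under some alternatives. It was 0.0779 in cells thinned to 2000 UMIs, chosen there by at least 2 UMIs from at least 2 genes (exact permutation p = 0.8). It was 0.126 with the hashtag ratio rule, 0.0933 without goblet-rule cells and 0.363 with repeated profiles counted once. The class difference also moved by over 1.5 times against goblet cells alone (0.36, exact permutation p = 0.1). Leaving out 1 mouse in turn gave 0.0633 to 0.316 percentage points for the share, -0.75 to -0.31 for the sum and 0.38 to 0.71 for the difference between classes. Of 4837 genes, edgeR called 0 between genotypes. It called 91 of 16047 (2 of them hormone genes) with all genes of at least 1 UMI, DESeq2 called 1, and leaving out a mouse gave 0 to 7, of hormone genes 0 to 1, the highest both without WT2. The interaction, with 0 calls, had 21 with all genes, 26 with the replicate block, 4 without cells that meet the goblet rule, 1 with the hashtag ratio rule, with the stricter gate and with a 15% mitochondrial limit, and between 4 and 49 when a mouse was left out; the cause was not tested. In enteroendocrine cells, mice of equal hashtag number did not deviate together (correlations of -0.03, -0.02 and 0.04), and the block left 0 calls between genotypes, with exact sign-flip p of 0.5 for the share and 0.25 for the sum and the class difference. Log2 fold changes that changed sign did so for Defa24 with the hashtag ratio rule (-0.65), for Ghrl with the stricter gate (-1.18), and without goblet-rule cells, a setting chosen after seeing the data, for Muc2 (0.33), Fcgbp (0.18), Ghrl (-0.056) and Tac1 (-0.16). On leaving out a mouse they ran from -2.0 to 1.51 for Cck, -0.97 to 4.01 for Gcg, -0.80 to 5.35 for Ghrl, -1.49 to 14.9 for Sst, -6.82 to 0.35 for Pyy and -0.25 to 10.1 for Tac1. The highest Sst and Tac1 values arise without WT3 and WT2, where the other WT mice have 0 UMIs; they depend on the prior count and are neither a fold nor a bound. Counting repeated profiles once, chosen after seeing the data, left 0 calls in both fits and changed no sign. With 8 to 19 cells per mouse, precision is limited by the number of cells, and 25 of 116 cells had no hashtag.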
